A study of Homo sapiens with 4 samples.

Results

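The growth signal brakes described here are 8 genes, SPRY2, SPRY4, SPRED1, SPRED2, SPRED3, ERRFI1, PHLDA1 and RASA1. They were chosen by name from the 19901 protein-coding genes of the count table, with earlier results of these data known. Nascent RNA was measured by TT-Seq in HCT116 KAP1 dTAG cells, 1 clone (D5) of a human colon cancer line in which endogenous KAP1 carries a C-terminal degron tag and HA epitopes in both conditions, so that the DMSO controls are not untagged cells. The cells grew in homeostatic conditions, in medium with serum, and received either DMSO or dTAG, the compound that directs tagged KAP1 to degradation, for 8 h. Both groups were then labeled with 500 μM 4-thiouridine (4sU) for 10 min, and RNA that had taken it up was purified and sequenced, with 2 replicates per condition. The study describes these as biological replicates, and the p-values measure the spread between them.

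Growth factor receptors at the cell surface switch on RAS, which starts a kinase cascade ending in ERK, and ERK in turn drives transcription of many genes, its own inhibitors among them. Sprouty proteins (SPRY2, SPRY4) act on this route between the receptor and RAF. SPRED proteins bring neurofibromin, which switches RAS off, to the membrane. ERRFI1 binds the kinase domain of EGFR and blocks it, PHLDA1 dampens signaling through ERBB receptors and AKT, and RASA1 speeds up the hydrolysis of GTP by RAS. In colon epithelium the pathway controls growth.

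Gene counts per library ranged from 93105627 to 102314741, and the 12612 genes that reached 50 counts in each of the 4 were tested. Counts of the 92 ERCC spike-in RNAs amounted to 0.0150% and 0.0265% of gene counts with DMSO and to 0.0136% and 0.0103% with dTAG. TRIM28, which encodes KAP1, was measured at 61.7 and 69.8 CPM (counts scaled to library size) with DMSO and at 53.5 and 47.9 CPM with dTAG. It was called lower (log2 fold change −0.37, edgeR quasi-likelihood test, Benjamini-Hochberg adjusted p = 0.019). After removal of each library's trend on GC content and gene length, TRIM28 was at −0.10 and not called. Since dTAG acts on the protein, the RNA does not check the labels. Of 7 epithelial markers, 5 were tested (EPCAM, CDH1, KRT8, KRT18 and CDX2), while KRT20 and VIL1 lay near 0, and the summed list was at 927 to 1012 CPM in the 4 libraries. Summed fibroblast markers were at 4.75 to 5.45 CPM, summed leukocyte markers at 3.45 to 4.23 CPM and summed endothelial markers at 1.77 to 2.60 CPM, and COL1A2 and LUM had no count in any library. Most of each sum came from 1 gene that passed the count minimum. These were COL1A1 (4.65 to 5.43 CPM), CD68 (3.32 to 4.16 CPM) and VWF (1.41 to 2.18 CPM). None of these markers was called; 1 epithelial marker was higher at an unadjusted p under 0.05 and by DESeq2.

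All 8 brakes passed the count minimum, and their levels differed widely. Since the reads were counted over whole genes, introns included, levels of different genes were compared as CPM per kb of gene. In DMSO cells PHLDA1 was the highest on this scale, at 74.9 and 79.9 CPM per kb, which placed its mean at the 99.5th percentile of tested genes. ERRFI1 followed at 34.2 and 31.2 CPM per kb and SPRY4 at 21.5 and 21.4 CPM per kb, also above the 98th percentile. The SPRED genes were far lower, with 3.61 and 3.39 CPM per kb for SPRED2 and 1.93 and 1.55 CPM per kb for SPRED1. SPRY2 was measured at 1.47 and 1.499 CPM per kb and RASA1 at 1.19 and 0.943 CPM per kb, which is near the middle of tested genes. SPRED3 was the lowest, at 0.345 and 0.485 CPM per kb, the 26.5th percentile. For no neighboring pair in this order did the ranges of the DMSO libraries overlap, although SPRED1 exceeded SPRY2 only by 1.17-fold in mean. In dTAG cells the order was kept, but SPRY2 (1.32 and 1.12 CPM per kb) overlapped RASA1 (1.17 and 1.26 CPM per kb), and ERRFI1 (61.1 and 58.7 CPM per kb) came close to PHLDA1 (68.2 and 61.9 CPM per kb).

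**Figure D1:**
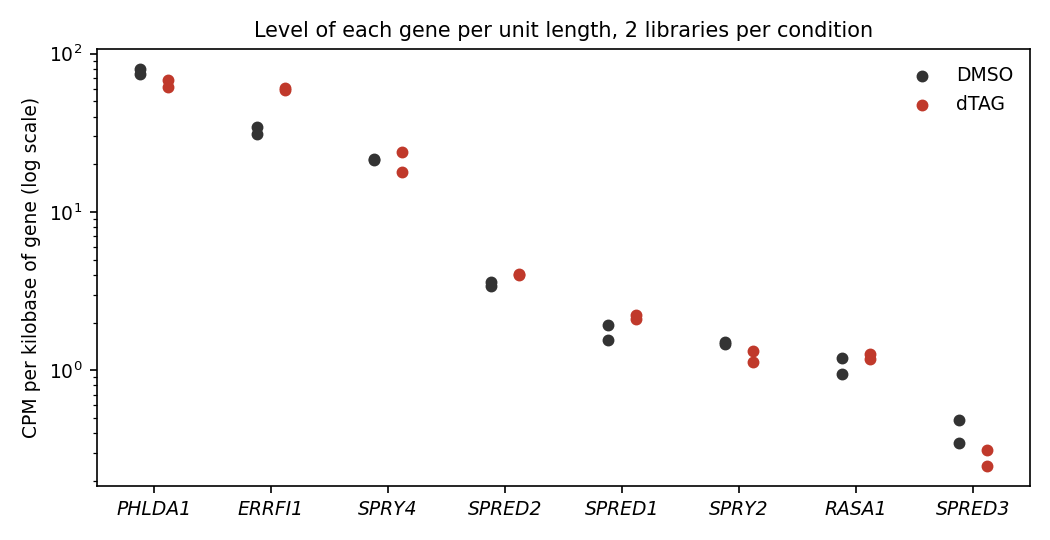
Level of each brake in CPM per kb of gene (log axis), with 1 point per library, DMSO in black and dTAG in red. PHLDA1, ERRFI1 and SPRY4 lie above 15 CPM per kb in every library, and the other 5 genes lie below 5.

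The comparison of dTAG with DMSO asks how transcription of the brakes differs after 8 h of dTAG. Of the 8 genes, 1 rose and none fell by edgeR's quasi-likelihood test with a Benjamini-Hochberg adjusted p under 0.05, against 3.44% of all tested genes called higher, 3.66% called lower and 7.1% in either direction. The gene that rose was ERRFI1. At an unadjusted p under 0.05, 3 were higher and 2 lower, beside 12.3% and 14.3% of all tested genes. DESeq2 called 2 higher and 0 lower, beside 5.39% and 4.54% of all tested genes. For 3 genes (ERRFI1, SPRED1 and SPRED2) both dTAG libraries lay above both DMSO libraries, for 3 (SPRY2, SPRED3 and PHLDA1) both lay below, and for SPRY4 and RASA1 the groups overlapped. Among all tested genes 28.1% lay above and 30.7% below, together 58.8%, so the shares of the brakes, 3 of 8 in each direction, say little about them as a group. Their median log2 fold change was 0.075, beside −0.015 over all tested genes. These are bulk libraries, in which more of a transcript per cell and more cells that make it cannot be told apart.

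**Figure D2:**
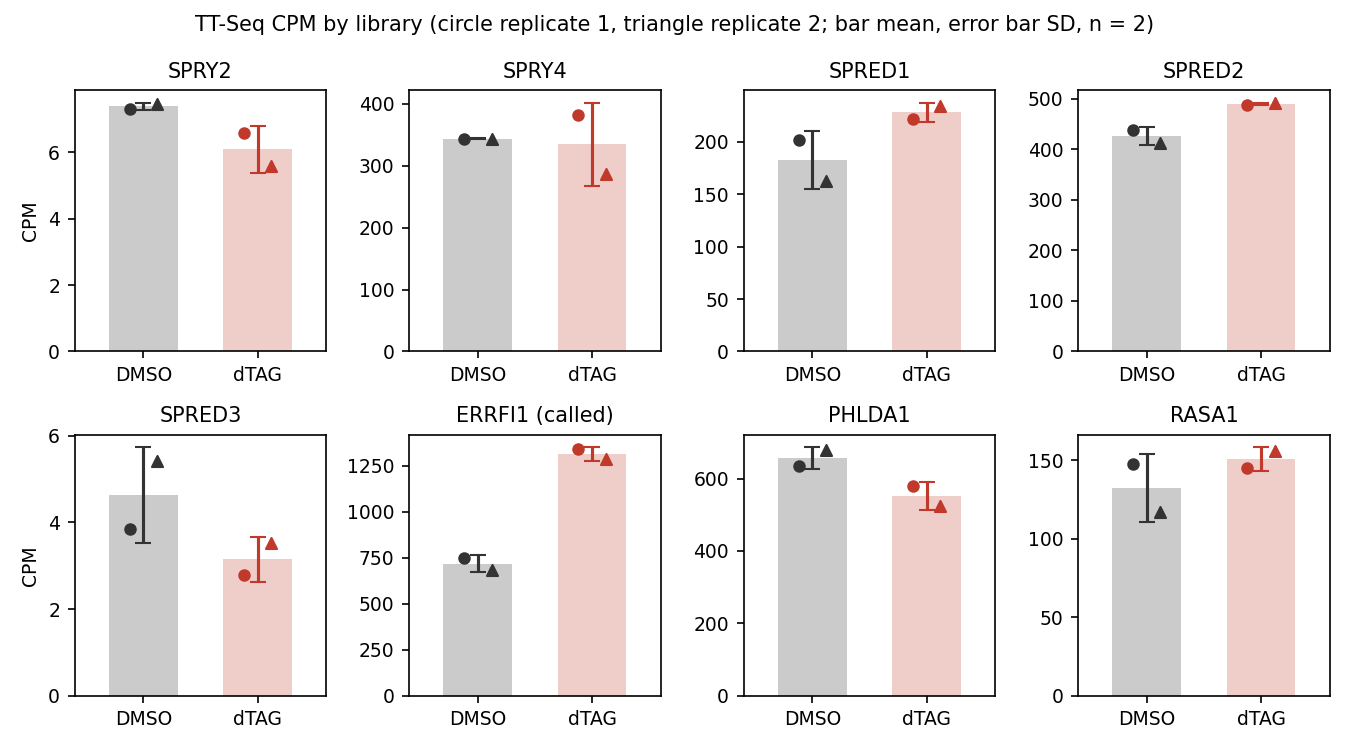
CPM of each brake in the 4 libraries, with 1 panel per gene, circles for replicate 1, triangles for replicate 2, and bars for group means with their SD (n = 2); each axis starts at 0. ERRFI1 is at 684 to 749 CPM with DMSO and at 1285 to 1339 CPM with dTAG, while the other panels show smaller gaps or overlapping groups.

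ERRFI1, the feedback inhibitor of EGFR also called MIG6, was measured at 749 and 684 CPM with DMSO and at 1339 and 1285 CPM with dTAG. The groups lay far apart, with the lower dTAG library well above the higher DMSO library. ERRFI1 rose 1.83-fold, from a mean of 716 ± 45.7 CPM (SD, n = 2) to 1312 ± 37.6 CPM. This corresponds to 0.87 on the log2 scale (SE 0.11, 95% interval 0.65 to 1.10, edgeR quasi-likelihood test, Benjamini-Hochberg adjusted p = 5.2e-05). This placed it at the 99.8th percentile of log2 fold changes. The gene (ENSG00000116285.12) spans chr1:8004404-8026308 of hg38 on the minus strand, and 19.1% of this interval is exonic in GENCODE 44. Between 68244 and 134044 counts per library stood behind these values. Its log2 fold change was between 0.81 and 0.94 when any 1 library was left out, and all 4 of these fits called it. With the ERCC totals as library sizes it was 1.498 and not called (adjusted p = 0.47, edgeR quasi-likelihood test, Benjamini-Hochberg), in a fit that shifted the overall median to 0.63 and called no gene, with 229 at an unadjusted p under 0.05.

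Promoter sequences were taken from RefSeq (GRCh38.p14), which matched all 8 genes with 12 promoters. The 150 bases before the start are shown for ERRFI1, the gene that rose, for PHLDA1, the gene of highest level, whose dTAG libraries lay lower, and for SPRED1, the gene closest to the threshold among those not called. Capitals mark CCAAT or the GC box, GGGCGG, on either strand. The windows are chr1:8026310-8026459 (minus strand), chr12:76031777-76031926 (minus strand) and chr15:38252686-38252835 (plus strand), and the latter 2 lie inside the intervals over which PHLDA1 and SPRED1 were counted.
ERRFI1: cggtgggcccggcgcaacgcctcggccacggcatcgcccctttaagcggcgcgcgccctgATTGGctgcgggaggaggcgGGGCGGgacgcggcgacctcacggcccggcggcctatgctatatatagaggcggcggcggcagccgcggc
PHLDA1: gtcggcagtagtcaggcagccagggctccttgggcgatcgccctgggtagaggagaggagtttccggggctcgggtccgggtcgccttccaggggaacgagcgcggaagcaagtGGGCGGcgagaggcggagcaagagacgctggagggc
SPRED1: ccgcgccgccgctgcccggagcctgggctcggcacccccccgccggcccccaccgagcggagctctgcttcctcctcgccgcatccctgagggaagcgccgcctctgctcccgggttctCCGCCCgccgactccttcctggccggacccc

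Each promoter was searched on both strands from 250 bases before to 50 bases after the start. In ERRFI1 a CCAAT box lay at −90 to −86 and a GC box at −70 to −65 from the start. The GC box was found in 9 of the 12 promoters, beside 45.0% of the 35116 RefSeq promoters, and CCAAT in 3 of the 12, beside 34.6%. Each of the 8 genes had at least 1 promoter with a GC box, a count by gene for which no share over all genes was taken. TGANTCA, the site bound by AP-1, was found in 2 of the 12 promoters, 1 of SPRED2 and 1 of SPRED3, beside 7.71%. TATAAA was found in 1 promoter, of SPRED2, beside 11.5%. No promoter of the 8 genes held TGACGTCA (1.85% of all promoters), CCGGAAGT (4.14%) or the CArG box (1.29%). Several promoters of 1 gene can overlap, and a match describes letters, not binding.

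SPRY4 had the same level in both DMSO libraries and very different levels in the dTAG libraries. It was measured at 344 and 343.5 CPM with DMSO and at 382 and 287 CPM with dTAG, so 1 dTAG library lay above and 1 below the DMSO pair. The log2 fold change was −0.04 (SE 0.11, 95% interval −0.27 to 0.19, edgeR quasi-likelihood test, Benjamini-Hochberg adjusted p = 0.85), and without dTAG replicate 2 it was 0.15. Within the dTAG group the log2 ratio of replicate 2 to replicate 1 was −0.41, the widest gap between replicates of this gene. SPRY4 (ENSG00000187678.9) spans chr5:142310427-142326455 on the minus strand, and 40.9% of it is exonic.

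SPRY2, its relative, was measured at 7.31 and 7.46 CPM with DMSO and at 6.59 and 5.59 CPM with dTAG. Both dTAG libraries were lower, but the difference did not pass the test (log2 fold change −0.28, SE 0.16, 95% interval −0.60 to 0.05, edgeR quasi-likelihood test, Benjamini-Hochberg adjusted p = 0.26). The counts were 504 to 744 per library, against 25931 to 38247 for SPRY4, and the standard error was larger. SPRY2 (ENSG00000136158.11) lies at chr13:80335976-80340951 on the minus strand, and exons fill 61.1% of it.

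In the SPRED family the members differed in direction, and none passed the threshold in the main test. A likelihood ratio test called SPRED1 higher and SPRED3 lower. Of all 12612 tested genes it called 729 higher and 864 lower, against 434 and 461 in the main test. SPRED1 was measured at 202 and 163 CPM with DMSO and at 222 and 234 CPM with dTAG, with both dTAG libraries higher. Its log2 fold change of 0.32 (SE 0.10, 95% interval 0.11 to 0.53) missed the threshold narrowly (edgeR quasi-likelihood test, Benjamini-Hochberg adjusted p = 0.055). DESeq2 called SPRED1 (log2 fold change 0.33, Wald test, Benjamini-Hochberg adjusted p = 0.034). With 1 ERCC factor as a covariate its value was 0.024, and it was not called. SPRED2 was measured at 439 and 413 CPM with DMSO and at 489 and 491 CPM with dTAG. Here the dTAG libraries were almost equal and above both DMSO libraries, with a log2 fold change of 0.20 (SE 0.10, 95% interval 0.001 to 0.40, edgeR quasi-likelihood test, Benjamini-Hochberg adjusted p = 0.19). SPRED3 was measured at 3.86 and 5.41 CPM with DMSO and at 2.78 and 3.51 CPM with dTAG, the lowest level of the 8 genes. Its dTAG libraries lay below the DMSO libraries, with a log2 fold change of −0.56 (SE 0.20, 95% interval −0.98 to −0.14, edgeR quasi-likelihood test, Benjamini-Hochberg adjusted p = 0.088), and 278 to 540 counts per library stood behind it. SPRED1 (ENSG00000166068.12, chr15:38252326-38357249, plus strand) and SPRED2 (ENSG00000198369.9, chr2:65310851-65432637, minus strand) are long genes of 105 and 122 kb, whereas SPRED3 (ENSG00000188766.12, chr19:38388421-38399587, plus strand) spans 11.2 kb.

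PHLDA1 was measured at 635 and 678 CPM with DMSO and at 579 and 525 CPM with dTAG, lower in both dTAG libraries. The difference did not pass the test (log2 fold change −0.25, SE 0.10, 95% interval −0.46 to −0.04, edgeR quasi-likelihood test, Benjamini-Hochberg adjusted p = 0.13). PHLDA1 (ENSG00000139289.13) was counted over chr12:76025447-76033932 on the minus strand, which in GENCODE 44 also holds the noncoding genes PHLDA1-AS1 (10.4% of the interval) and PHLDA1-DT (14.6%). How the counting treated strand is not stated, so their reads cannot be told apart from those of PHLDA1. Noncoding genes also overlap SPRY4 (SPRY4-AS1, 7.78% of the interval), SPRED2 (5.74%) and ERRFI1 (4.15%).

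RASA1 was measured at 148 and 117 CPM with DMSO and at 145 and 156 CPM with dTAG, and the groups overlapped. Its log2 fold change was 0.19 (SE 0.10, 95% interval −0.02 to 0.39, edgeR quasi-likelihood test, Benjamini-Hochberg adjusted p = 0.23). RASA1 (ENSG00000145715.14, chr5:87267888-87391931, plus strand) shares 59.3% of its interval with CCNH, the gene of cyclin H on the opposite strand. CCNH was measured at 127 and 106 CPM with DMSO and at 137 and 142 CPM with dTAG, and reads of the pair cannot be assigned with certainty without strand. RASA1 was the only one of the 8 genes that overlapped another gene of the count table.

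**Figure D3:**
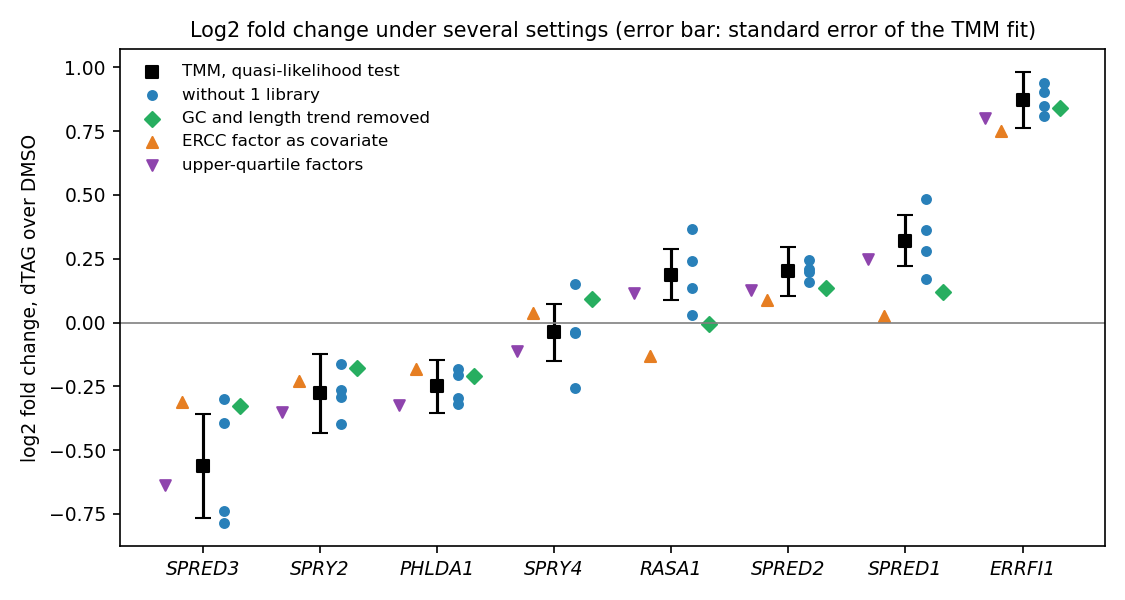
Log2 fold change, dTAG over DMSO, of each brake (squares, with the standard error of the TMM fit as the error bar), beside the values without 1 library (circles), with the GC and length trend removed (diamonds), with the ERCC factor (upward triangles) and with upper-quartile factors (downward triangles). ERRFI1 lies above 0.7 in every setting drawn and SPRY4 and RASA1 fall on both sides of 0, while the ERCC totals, not drawn, shifted the overall median to 0.63 and gave SPRY2, SPRY4, SPRED3 and PHLDA1 values above 0.

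The brakes with higher and lower dTAG values also differed in base composition. SPRED1 (35.4% GC), RASA1 (35.8%), ERRFI1 (42.8%) and SPRED2 (43.8%) had log2 fold changes above 0, and PHLDA1 (45.1%), SPRY2 (48.0%), SPRY4 (51.2%) and SPRED3 (56.2%) had values below 0. Across all tested genes the log2 fold change also moved with GC content (Spearman's rho −0.56) and with gene length (rho 0.42), as a description across genes, which are not independent replicates. The log2 ratio of DMSO replicate 2 to replicate 1 moved with GC content as well (rho 0.75), and this ratio was −0.31 for SPRED1, −0.33 for RASA1 and 0.49 for SPRED3, beside log2 fold changes between conditions of 0.32, 0.19 and −0.56. After each library's trend on GC content and length was removed, ERRFI1 had a log2 fold change of 0.84 (edgeR quasi-likelihood test, Benjamini-Hochberg adjusted p = 9.1e-07), nearly as large as before. In the same fit SPRED1 had 0.12, RASA1 −0.0048, SPRED2 0.14, SPRY4 0.09, SPRED3 −0.33, SPRY2 −0.18 and PHLDA1 −0.21. SPRED1, SPRED2 and PHLDA1 were also called there, beside 10.7% of all tested genes higher and 7.48% lower, at Benjamini-Hochberg adjusted p-values of 0.043, 0.027 and 0.0064 by the edgeR quasi-likelihood test. Without DMSO replicate 1, ERRFI1, SPRED1, SPRED2 and RASA1 were called higher and SPRED3 and PHLDA1 lower, beside 22.2% of all tested genes higher and 21.4% lower. SPRED1 was then at 0.48, RASA1 at 0.36 and SPRED3 at −0.79. Without DMSO replicate 2, ERRFI1 alone was called, beside 6.41% higher and 5.47% lower, and SPRED1 was at 0.17, RASA1 at 0.03 and SPRED3 at −0.30.

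**Figure D4:**
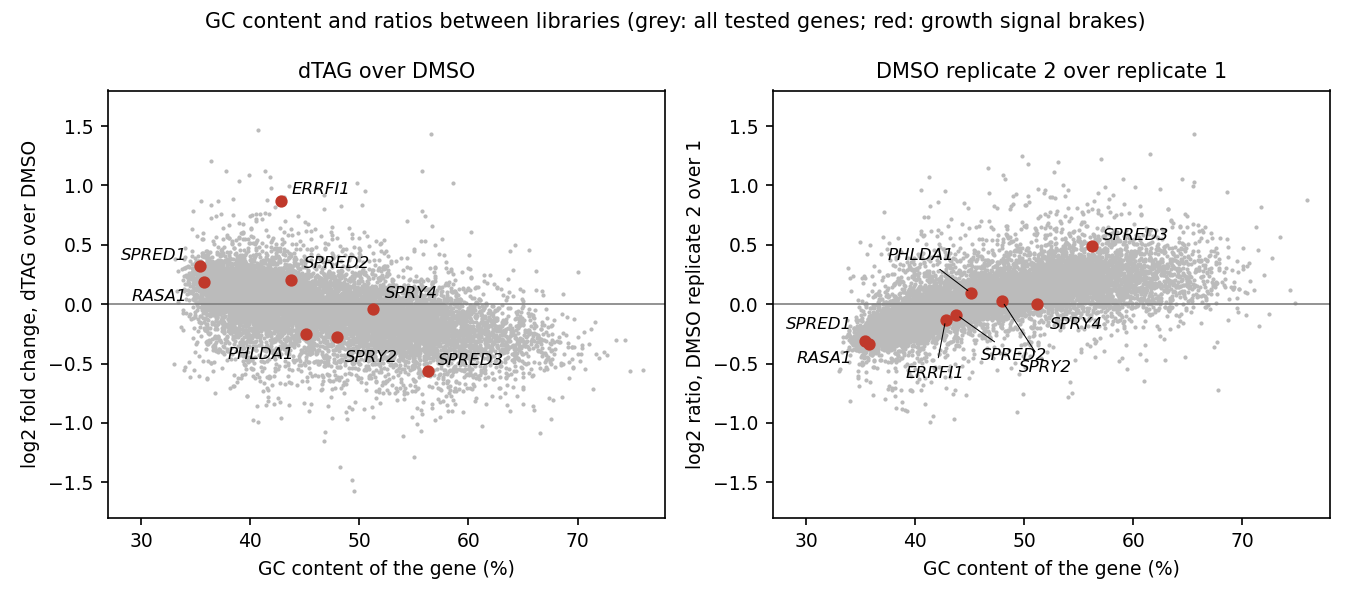
Log2 fold change, dTAG over DMSO (left), and log2 ratio of DMSO replicate 2 to replicate 1 (right), each against the GC content of the gene in percent, with tested genes in gray and the 8 brakes in red. ERRFI1 lies at the upper edge of the cloud on the left and within it on the right, while SPRED1, RASA1 and SPRED3 follow the cloud in both panels.

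Other genes of the pathway were followed in 4 lists. Of 23 other brakes of receptor, RAS and AKT signaling, 20 were tested. By edgeR none was called higher, beside 3.44% of all tested genes. At an unadjusted p under 0.05, 4 were higher and 3 lower, beside 12.3% and 14.3%. DESeq2 called 1 higher and 1 lower, beside 5.39% and 4.54%. By edgeR 1 gene was called lower, beside 3.66% of all tested genes. That gene was PHLDA3, an inhibitor of AKT, which fell from 17.1 and 22.7 CPM to 14.9 and 11.5 CPM (log2 fold change −0.59, SE 0.14, edgeR quasi-likelihood test, Benjamini-Hochberg adjusted p = 0.019), lower in both dTAG libraries, although with the ERCC totals its value was 0.09. PHLDA3 was not called with the ERCC factor (−0.20) or without dTAG replicate 2 (−0.41), and it was called at −0.33 after removal of the GC and length trend and at −0.37 without DMSO replicate 2. SPRY3, RASA4 and RASAL3 did not reach the count minimum, and RASA4, which has near-identical copies, had no counts. The median of this list was 0.02. Of the 21 genes of the RAS-ERK cascade itself, from adaptors to kinases, all were tested and none was called by edgeR or DESeq2. Their log2 fold changes ran from −0.30 to 0.24, with a median of 0.05. At an unadjusted p under 0.05, 2 were higher and 2 lower, beside 12.3% and 14.3% of all tested genes.

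Among 12 genes whose transcription responds to ERK, 5 were called higher and none lower by edgeR, with a median log2 fold change of 0.12. Of all tested genes 3.44% were called higher and 3.66% lower. This list, like the others, was chosen with earlier results of these data known, so its share called is not independent evidence. At an unadjusted p under 0.05, 5 of the 12 were higher and 1 lower, beside 12.3% and 14.3% of all tested genes. DESeq2 called 4 higher and 0 lower, beside 5.39% and 4.54%. EGR1, an immediate early transcription factor, was measured at 25.97 and 21.0 CPM with DMSO and at 80.9 and 46.1 CPM with dTAG (log2 fold change 1.44, SE 0.16, edgeR quasi-likelihood test, Benjamini-Hochberg adjusted p = 1.9e-05). DUSP5, a phosphatase of ERK, rose with a log2 fold change of 0.64, FOSL1, an AP-1 subunit, with 0.53, EPHA2, an ephrin receptor, with 0.42, and ETV5, an ETS transcription factor, with 0.37, each with both dTAG libraries above both DMSO libraries. Among all tested genes 28.1% lay above in this way. The 7 genes not called included DUSP6, the phosphatase often read as a measure of ERK output, at 307 and 305 CPM with DMSO and at 309 and 255 CPM with dTAG. Without dTAG replicate 1, DUSP5, FOSL1, EPHA2 and ETV5 had log2 fold changes of 0.34, 0.40, 0.32 and 0.47 and were not called. Without dTAG replicate 2, EPHA2 and ETV5 were at 0.52 and 0.27 and were not called either. Far fewer genes of any kind were called in these fits than in the main test. DESeq2 called 4 of the 5 higher but not DUSP5 (log2 fold change 0.65, Benjamini-Hochberg adjusted p = 0.11), and with the ERCC factor ETV5 was not called, at 0.19.

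Of 15 growth factor receptors, 11 were tested, 2 were called higher and 1 lower, beside 3.44% and 3.66% of all tested genes. At an unadjusted p under 0.05, 2 were higher and 3 lower, beside 12.3% and 14.3%. Their median log2 fold change was −0.06. EGFR, the receptor that ERRFI1 inhibits, rose from 221 and 211 CPM to 268 and 263 CPM (log2 fold change 0.30, edgeR quasi-likelihood test, Benjamini-Hochberg adjusted p = 0.047), beside 0.87 for ERRFI1. AXL, a receptor kinase for GAS6, rose from 80.1 and 88.1 CPM to 105 and 111 CPM, and FGFR3 fell from 7.90 and 9.64 CPM to 6.42 and 5.13 CPM, although with the ERCC totals FGFR3 had a log2 fold change of 0.06. FGFR3, with 65.8% GC, was not called after removal of the GC and length trend (−0.26) or with the ERCC factor (−0.33), and EGFR was not called with upper-quartile factors (0.23). ERBB4, KIT, PDGFRA and PDGFRB did not reach the count minimum, KIT and PDGFRA with no counts. Without dTAG replicate 1 and 2, EGFR had log2 fold changes of 0.29 and 0.31, beside 0.30 with all libraries. AXL was then at 0.41 and 0.32, beside 0.36, and FGFR3 at −0.77 and −0.45, beside −0.60. These receptors were not called in either fit, but far fewer genes of any kind were called there than in the main test.

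**Figure D5:**
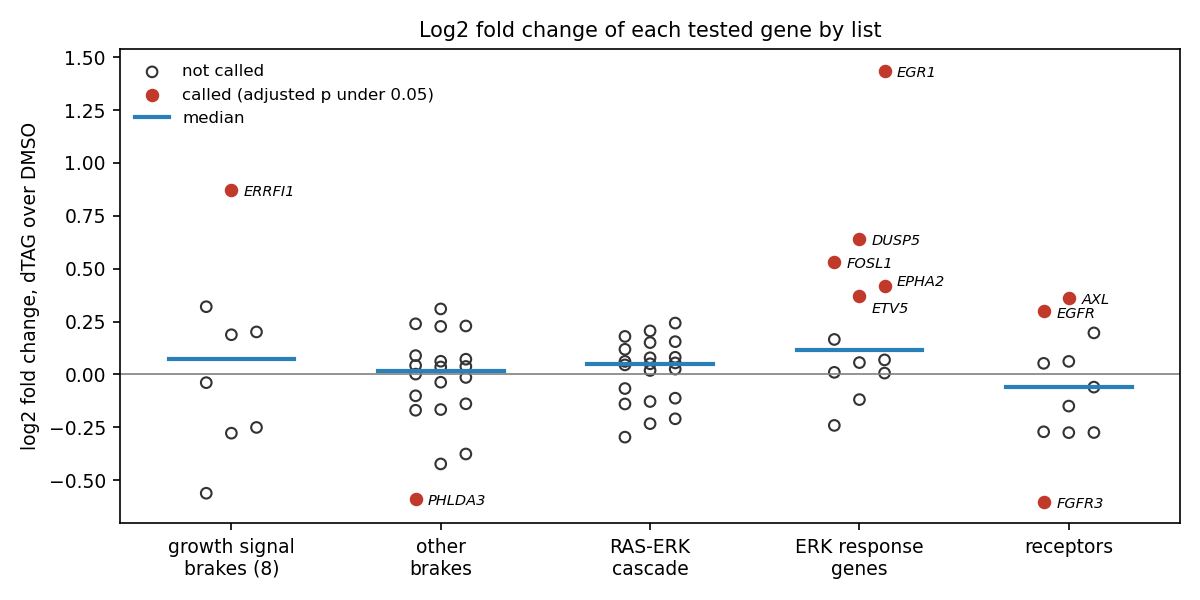
Log2 fold change, dTAG over DMSO, of every tested gene of the 8 brakes and of the 4 pathway lists, with filled points for genes called at an adjusted p under 0.05 and lines for list medians; with the ERCC totals PHLDA3 and FGFR3 lie above 0. ERRFI1 is at 0.87, above every gene of the lists other than EGR1 at 1.44.

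The genes whose pattern over the 4 libraries was most like that of a brake were taken as those with the smallest root mean square distance between log2 CPM values, each centered on the gene's mean. For ERRFI1 these were CPA4 (distance 0.034), CLIP4 (0.060) and GPRC5A (0.067). CPA4, a carboxypeptidase, was measured at 28.9 and 27.3 CPM with DMSO and at 55.3 and 51.0 CPM with dTAG, so that, as for ERRFI1, both dTAG libraries lay well above the DMSO libraries. For SPRY4 they were BICC1 (0.015), OBSL1 (0.021) and JOSD2 (0.025), all at 6.06 CPM or lower in every library and all higher in dTAG replicate 1 than in dTAG replicate 2.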

How the data were processed

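TT-Seq libraries from 2 DMSO and 2 dTAG samples were analyzed. The authors trimmed reads with Trim Galore 0.6.4, aligned them to hg38 with STAR and counted them over whole protein-coding genes and ERCC RNAs with featureCounts (Subread 1.6.3). The deposited values are raw counts, with no normalization, and how strand was treated is not given in the sources used here. The 8 genes and all gene lists were chosen with earlier results of these data known. Symbols were matched by Ensembl identifier for 19784 of 19901 genes. Gene starts in the table count from 0 and were raised by 1.

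Genes that reached 50 counts in each of the 4 libraries were tested in R 4.3.3 with edgeR 4.0.16 (TMM, quasi-likelihood F test, two-sided, no replicate block) and Benjamini-Hochberg adjustment over 12612 genes, and an adjusted p under 0.05 was called. The authors' methods name edgeR with RUVSeq and spike-ins but not the settings, so TMM was the main choice. CPM values use TMM-scaled library sizes, each SD is over 2 libraries, and standard errors were derived from the fold change and its F statistic. TMM factors were 1.00, 1.05, 0.979 and 0.970. Replicates differed beyond counting error, with a chi-square of 51.3 per degree of freedom for DMSO and 15.1 for dTAG. Standard errors were larger for genes with few counts, 0.20 for SPRED3 and 0.16 for SPRY2 against 0.10 for SPRED2.

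Alternatives were DESeq2 1.42.0, upper-quartile factors, ERCC totals as library sizes, 1 ERCC factor as a covariate (from 14 ERCC RNAs), a likelihood ratio test, a replicate block, removal of each library's trend on GC content and length (lowess, span 0.3), other count minimums and leaving out each library. On simulated data for the dTAG comparison (12612 genes, 200 changed by a log2 fold of 1), the main test recovered 98% of the genes altered, and false calls made up 6.22%. No change smaller than a log2 fold of 1 was simulated, and every brake changed by less than that in the main test. The simulated libraries held no trend on GC content or length, unlike the real ones. These rates therefore need not hold for the real calls. The genes named are the 8 brakes, TRIM28, list genes that were called or not tested, and the 3 genes most like ERRFI1 and SPRY4; CCNH, EPHA4, IER3, ETV1, ETV4, DUSP4, DUSP6 and CCND1 were named after their values were seen. Cell type markers named in the report belong to lists of their own. Promoters and motifs are from RefSeq sequences.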

Additional observations from a re-analysis of the deposited data

How the results depend on the processing

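ERRFI1 was called higher in 14 of 15 alternatives, all but the ERCC totals, and SPRY2 and SPRY4 were called in none. Where no cause is named, the cause was not tested. The ERCC totals moved the median log2 fold change of all genes to 0.63 and called 0 brakes, 0 list genes and 0 genes in all, with 229 genes at an unadjusted p under 0.05. There the signs turned for SPRY2 (0.36), SPRY4 (0.58), SPRED3 (0.17), PHLDA1 (0.40), PHLDA3 (0.086), FGFR3 (0.059) and TRIM28 (0.28). With the ERCC factor SPRY4 was at 0.039, RASA1 at −0.13 and CCNH at −0.0011. With the GC and length trend removed SPRY4 was at 0.090 and RASA1 at −0.0048, and with the replicate block added at 0.082 and −0.0046. Without dTAG replicate 2 SPRY4 was at 0.15.

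The number of all genes called higher, 434 in the main test, was 680 with DESeq2, 255 with upper-quartile factors and 729 with the likelihood ratio test. It was 1344 after removal of the GC and length trend and 1507 after that with the replicate block. The number called lower, 461, was 869 with upper-quartile factors, 755 with the ERCC factor and 864 with the likelihood ratio test. It was 943 after removal of the trend and 1127 after that with the block. With no count minimum 673 were higher and 744 lower, but there 17450 genes were tested, not 12612. The 1 brake called higher became 2 with DESeq2, the likelihood ratio test, no minimum or the trend with the block, and 3 after removal of the trend. The 0 brakes called lower became 1 with upper-quartile factors, the likelihood ratio test, no minimum or removal of the trend with or without the block. Of the 4 lists, 7 genes were called higher and 2 lower. These became 16 and 6 after removal of the trend and 18 and 7 after that with the block, and the number lower was 6 with upper-quartile factors, 5 with the ERCC factor and 4 with the likelihood ratio test.

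The replicate numbers are shared labels, with no stated pairing, and the deviations of same-numbered libraries had r = −0.25. A replicate block left 162 genes higher and 178 lower, 3 and 1 in the lists and ERRFI1 alone among the brakes. The crossed block, chosen after seeing the data, gave 1587 and 1603 genes, 14 and 10 in the lists and 3 and 2 brakes. Leaving out 1 library, where the lone sample is assumed to vary like the other group, gave 48 to 2798 genes higher and 21 to 2693 lower, 1 to 4 and 0 to 2 brakes, and 1 to 22 and 0 to 12 list genes, in each case most without DMSO replicate 1.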

Other observations

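Of the 12 ERK response genes, 5 had a log2 ratio of dTAG replicate 2 to replicate 1 under −0.25, as SPRY4 did, beside 5.71% of all tested genes, a pattern and limit chosen after the values were seen. This ratio was −0.41 for SPRY4, −0.81 for EGR1, −0.56 for DUSP5, −0.35 for DUSP4, −0.28 for DUSP6 and −0.27 for FOSL1. In the DMSO pair the same ratio was −0.0020 for SPRY4, −0.31 for EGR1, −0.05 for DUSP5, 0.04 for DUSP4, −0.01 for DUSP6 and 0.18 for FOSL1. The other 7 ERK response genes were EPHA2 (−0.21), CCND1 (−0.09), EPHA4 (−0.02), IER3 (−0.01), ETV4 (−0.01), ETV1 (0.04) and ETV5 (0.20). Genes outside that list also had the gap, such as PHLDA3 (−0.37), while ERRFI1 was at −0.06 and PHLDA1 at −0.14. Over all tested genes the dTAG ratio tended to be lower where a gene was richer in GC (Spearman's rho −0.43). It tended to be higher in longer genes (rho 0.35). The 5 ERK response genes under the limit had 46.6% to 56.6% GC and lengths of 3.83 to 17.6 kb. The other 7 had 36.3% to 58.6% GC and lengths of 1.36 to 156 kb. Neither this difference between replicates nor the share of that trend in it was tested.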
